A study of Drosophila melanogaster with 15 samples.

Results

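Metallothioneins and genes of copper and zinc transport were followed by RNA-seq across 5 RNAi groups of Kc167 cells, an embryonic line of D. melanogaster. The set holds 8 of the 17481 gene identifiers counted, namely the metallothioneins MtnA, MtnB, MtnC, MtnD and MtnE, the transcription factor gene MTF-1 and the copper importer genes Ctr1A and Ctr1B. These genes were chosen by family membership and by a measured value, because MtnA had the largest decrease after DOM-A RNAi of all genes whose normalized count averaged at least 100. The values of the 8 genes in DOM-A RNAi against CTRL are therefore a description and carry no test. Of the 8 genes, 5 passed the filter of at least 1 read in 6 libraries (MtnA, MtnD, MtnE, MTF-1 and Ctr1A), and MtnB, MtnC and Ctr1B did not.

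All libraries came from Kc167 cells that had taken up dsRNA in culture, with 3 replicates per group. The CTRL dsRNA targeted GST (replicates 1 and 3) or GFP (replicate 2), and its sequence and the replicate number cannot be told apart. Which of the alternative dsRNA sequences per target went into each of the other libraries is not given in the sources used here. These groups received dsRNA against H2A.V (the histone variant encoded by His2Av), against TIP60 (the acetyltransferase encoded by Tip60), or against DOM-A or DOM-B, both isoforms of the ATPase DOMINO encoded by the gene dom. D. virilis cells were added to every sample before RNA extraction, and a normalized count is the read count divided by a size factor from the D. virilis reads.

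Metallothioneins are small cysteine-rich proteins that bind copper, zinc and cadmium and buffer their free concentration. In Drosophila, MTF-1 is a zinc finger protein that binds metal response elements and activates metallothionein genes when metal is in excess. Ctr1A and Ctr1B are membrane proteins that take up copper, and MTF-1 is known to activate Ctr1B when copper is scarce. The iron store of fly cells is ferritin, made of the subunits encoded by Fer1HCH and Fer2LCH.

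The libraries held between 8662976 and 14679536 reads on D. melanogaster genes. His2Av had normalized counts of 10303 to 12183 in CTRL, and of 221, 1930.3 and 273 in replicates 1, 2 and 3 of H2A.V RNAi, so that replicate 2 of this group stood apart. In the other knock-downs His2Av had 8711 to 11249 after DOM-B, 6610 to 7759 after TIP60 and 7189 to 7451 after DOM-A RNAi. Tip60 had 242 to 275 in CTRL and 34.5 to 46.9 after TIP60 RNAi. It had 164 to 186 after H2A.V, 201 to 204 after DOM-B and 279 to 389 after DOM-A RNAi. These values of His2Av and Tip60 are given without a test. Reads were counted per gene, which pools the isoforms of dom, and the depletion of DOM-A or DOM-B was not checked here. The means of dom were 4558 in CTRL, 4664 after H2A.V, 4237 after DOM-B, 7972 after TIP60 and 5579 after DOM-A RNAi. By western blot, the paper reports that RNAi of either isoform left the other in place. It also reports less TIP60 protein after DOM-A RNAi. All 8 blood cell markers (srp, ush, Pxn, Hml, NimC1, eater, Col4a1 and vkg) had reads in every library. Their summed normalized count was 23558 to 28746 in CTRL, 17392 to 37825 after H2A.V RNAi, 45868 to 57598 after DOM-B RNAi, 31132 to 93425 after TIP60 RNAi and 83616 to 97828 after DOM-A RNAi. The germline marker vas had 2.22 to 9.53 in CTRL, 46.7 to 62.4 after H2A.V, 88.0 to 168 after DOM-B, 11.95 to 20.5 after TIP60 and 14.4 to 37.9 after DOM-A RNAi, above CTRL in each knock-down. The gene solo overlaps vas on the same strand, and counting by strand does not separate these genes. The other germline marker chosen, nos, was not analysed. All 3 neuron markers (elav, nSyb and Syt1) had reads in every library. Their sum was 246 to 399 in CTRL, 177 to 304 after H2A.V, 231 to 357 after DOM-B, 63.7 to 116 after TIP60 and 96.2 to 127 after DOM-A RNAi. The sum was thus lowest in the TIP60 and DOM-A libraries, as was the mean of MtnA in these groups. Most of the sum was elav, with means of 306 in CTRL, 64.7 after TIP60 and 93.8 after DOM-A RNAi. In this order nSyb had means of 11.2, 8.78 and 11.3. Syt1 went the other way, with 6.08, 12.9 and 10.3. The gene lncRNA:enrr overlaps elav on the same strand, and counting by strand does not separate these genes either. Of the gut copper cell markers, lab had at most 1 read in a library, and Vha100-4 had reads in every library. Vha100-4 ranged from a normalized count of 3.18 in CTRL to 10.2 after H2A.V RNAi. The gene cona overlaps Vha100-4 on the opposite strand. Beside its 16 reads in CTRL, Vha100-4 had 1118 on the other strand, and 1780 beside 22 after DOM-B RNAi. Whether its few reads come from Vha100-4 itself was not tested. The fat body markers Lsp2 and Fbp1 had at most 3 reads in a library. The muscle markers (Mhc, Act88F and up) had reads in every library. Their sum was 76.7 to 92.2 in CTRL and 118 to 196 after H2A.V RNAi. It was 60.6 to 120 after DOM-B, 63.3 to 112 after TIP60 and 75.3 to 119 after DOM-A RNAi. The part of these marker levels in the results was not tested.

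All positions refer to the BDGP6 assembly, and the 5 metallothionein genes of the set lie on chromosome 3R. MtnA (FBgn0002868) spans 9783407 to 9784370 on the minus strand, with 2 transcripts of 2 exons each, an exonic length of 700 nt and 40 codons. MtnC (FBgn0038790; 20360308 to 20360634, plus strand), MtnB (FBgn0002869; 20503102 to 20503746, minus strand), MtnE (FBgn0262146; 20534021 to 20534704, minus strand) and MtnD (FBgn0053192; 20534962 to 20535301, plus strand) lie within 174994 bp of each other and encode 41 to 44 codons. MtnE and MtnD are divergent neighbours with 257 bp between them. MTF-1 (FBgn0040305) spans 9430312 to 9439490 of chromosome 3L on the plus strand, Ctr1A (FBgn0062413) 6661647 to 6668258 of chromosome X on the plus strand, and Ctr1B (FBgn0062412) 8317612 to 8319205 of 3R on the plus strand. The authors discarded reads that mapped to several positions, so that reads shared between near-identical copies are missing from these counts.

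MtnA carried almost all reads on the 5 metallothionein genes of the set. Of 21269 reads on the 5 metallothionein genes in the 15 libraries, 21167 fell on MtnA, or 99.5%. This share was 99.9% over the CTRL libraries and 91.1% over the DOM-A libraries, where it ranged from 72.7% to 98.6%. Per kb of exonic sequence, the mean normalized count in CTRL was 5787 for MtnA, 257 for Ctr1A and 186 for MTF-1. In CTRL, MtnA had rank 150 among 11327 genes ordered by the normalized count per kb, whereas Ctr1A had rank 3513 and MTF-1 rank 4323. MtnB, MtnC, MtnD, MtnE and Ctr1B had 0 to 9 reads in every library.

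The normalized counts of MtnA in replicates 1, 2 and 3 were 4073, 7279 and 801 in CTRL and 114, 129 and 44.1 after DOM-A RNAi. All DOM-A libraries were below all CTRL libraries, and the read counts behind the DOM-A values were 71, 136 and 48. The mean of CTRL was 4051 ± 3239 (SD, n = 3), that of DOM-A RNAi 95.6 ± 45.2 (SD, n = 3). The fitted level after DOM-A RNAi was 2.84% of that in CTRL, a log2 change of −5.14 (SE 0.447), with −5.15, −5.81 and −4.15 in the single replicates. In bulk RNA, fewer cells that express a gene and less RNA per cell cannot be told apart. The gene next in this order of decrease among 6462 genes was CG7860, with a log2 change of −4.20, and these values are the selection itself. Without the 5 libraries of replicate 2, the log2 change of MtnA was −4.75.

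MtnA also had lower levels in the other knock-downs, which the choice of the genes did not use, although their comparisons with CTRL share the CTRL libraries with it. High CTRL values of MtnA favoured its choice, so that its changes and calls against CTRL can be overstated. Its normalized counts in replicates 1, 2 and 3 were 1111, 2093 and 622 after H2A.V RNAi. After DOM-B RNAi they were 939, 1480.5 and 362. After TIP60 RNAi they were 327, 1547 and 91.8. In each replicate number, CTRL was the highest of the 5 groups and DOM-A the lowest. The groups nevertheless overlapped, since CTRL replicate 3 lay below replicates 1 and 2 of H2A.V and DOM-B RNAi and below TIP60 replicate 2, and TIP60 replicate 3 lay below DOM-A replicates 1 and 2.

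MtnA fell after TIP60 RNAi with a log2 change of −2.85 (SE 0.386, adjusted p = 0.000182 by the quasi-likelihood test of edgeR after Benjamini-Hochberg correction), with −3.63, −2.23 and −3.11 in the single replicates. After DOM-B RNAi it fell by 1.89 on the log2 scale (SE 0.370, edgeR adjusted p = 0.00484), and all 3 replicates were lower. After H2A.V RNAi the log2 change was −1.36 (SE 0.366, edgeR adjusted p = 0.0153), which missed the threshold of 0.01, although MtnA was lower in 3 of 3 replicates. The median log2 change of all genes after H2A.V RNAi was −0.22 with the D. virilis size factors and 0.02 with TMM normalization, and relative to the former the log2 change of MtnA was −1.14. TIP60 RNAi against CTRL called MtnA alone among the 5 members tested, where 13.3% of all genes were called. At an unadjusted edgeR p under 0.05 it had 4 of 5 members. DOM-B RNAi likewise called 1 of 5 members beside 5.07% of all genes, and H2A.V RNAi called 0 of 5 beside 12.7% (2 of 5 at an unadjusted p under 0.05, and 1 of them with DESeq2).

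Between the knock-downs, which leave out both the DOM-A and the CTRL libraries in the contrast, MtnA was lower after TIP60 than after H2A.V RNAi by a log2 change of −1.49 (SE 0.377, edgeR adjusted p = 0.00697; −1.76, −0.44 and −2.75 in the single replicates). TIP60 and DOM-B RNAi differed by −0.96 (SE 0.374, edgeR adjusted p = 0.0702), and replicate 2 had the opposite sign with 0.06. DOM-B and H2A.V RNAi differed by −0.53 (SE 0.362, edgeR adjusted p = 0.310). The order of the fitted levels was thus CTRL, H2A.V, DOM-B, TIP60 and DOM-A, and no neighbouring pair among the first 4 differed at the threshold. For comparison, DOM-A and TIP60 RNAi differed by −2.29 and DOM-A and DOM-B RNAi by −3.25, both without a test. In these contrasts TIP60 against H2A.V RNAi called 2 of 5 members (22.8% of all genes), TIP60 against DOM-B RNAi 0 of 5 (16.4%; 2 of 5 at an unadjusted p under 0.05, and 1 of them with DESeq2) and DOM-B against H2A.V RNAi 0 of 5 (11.0%; 1 of 5 at an unadjusted p under 0.05 and 0 with DESeq2).

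The calls of MtnA depended on the replicate block, the term of the fit that takes out differences between replicate numbers. Without it, the adjusted p-value was 0.166 for DOM-B RNAi, 0.0538 for TIP60 RNAi and 0.437 for TIP60 against H2A.V RNAi by edgeR. The call after TIP60 RNAi held in 6 of 6 fits from which a single CTRL or TIP60 library was removed, and the call after DOM-B RNAi in 1 of 6 (the fit without CTRL replicate 3). The call between TIP60 and H2A.V RNAi held in 2 of 6 fits, those without H2A.V replicate 2 or TIP60 replicate 2, and was lost without replicate 1 or 3 of either group.

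**Figure D1:**
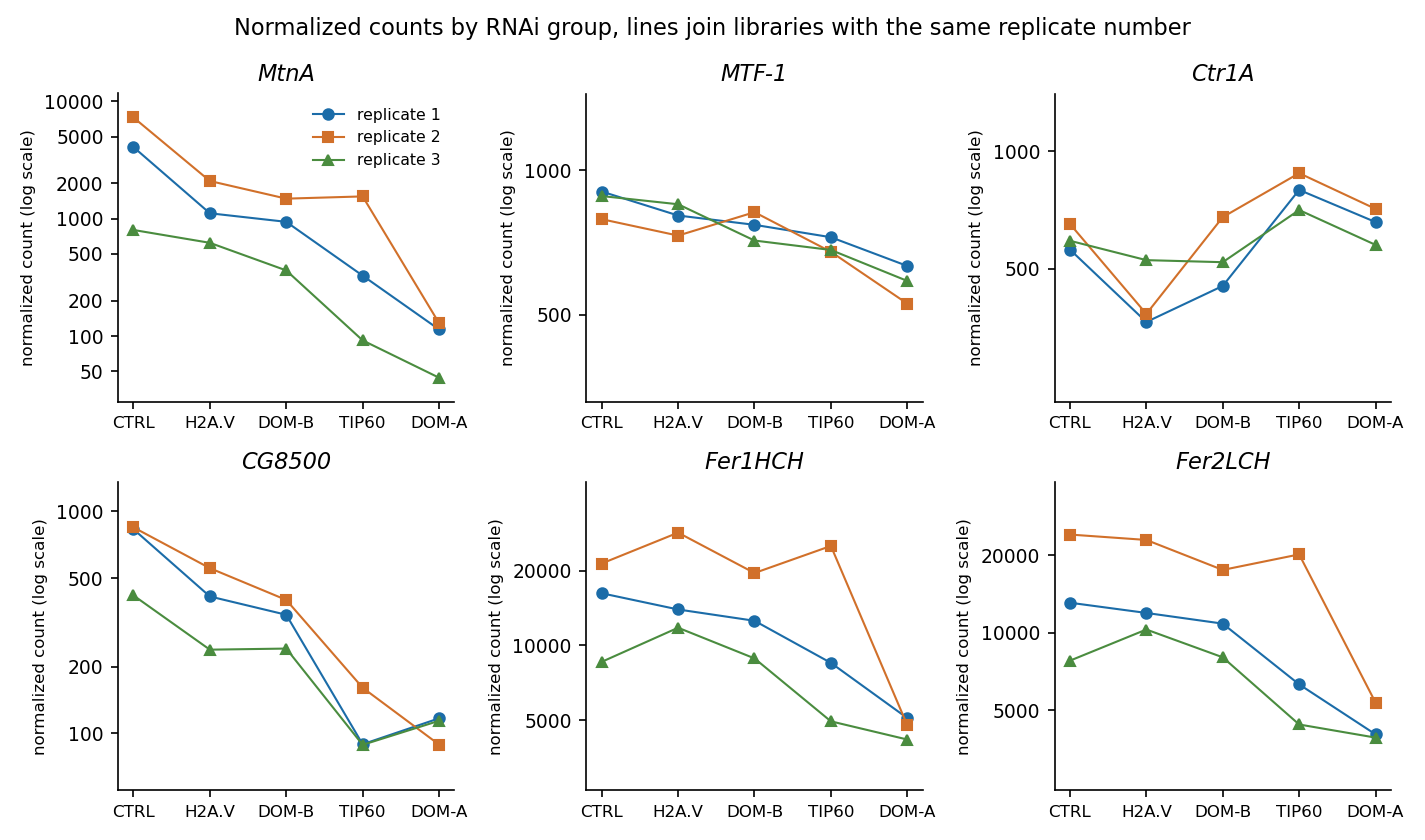
Normalized counts on a logarithmic axis by RNAi group for MtnA, MTF-1, Ctr1A, CG8500 (the gene beside MtnA) and the ferritin genes Fer1HCH and Fer2LCH, with a line for each replicate number. The 3 lines of MtnA stay apart over most groups, with replicate 2 highest and replicate 3 lowest in each group, whereas those of MTF-1 cross.

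MtnA also varied strongly between the replicates of a group. Replicate 2 was the highest and replicate 3 the lowest in each of the 5 groups, and the highest library exceeded the lowest 9.09-fold in CTRL, 16.8-fold after TIP60 RNAi and 2.92-fold after DOM-A RNAi. The standard deviation within groups was 1.37 on the scale of log2(normalized count + 1), rank 18 of 6462 genes, where the median gene had 0.211. By comparison, it was 0.102 for MTF-1 and 0.215 for Ctr1A. Fer1HCH had 0.734 and Fer2LCH 0.741, and both ferritin genes were highest in replicate 2 of CTRL, H2A.V, DOM-B and TIP60 RNAi. Without the 5 libraries of replicate 2, an alternative chosen after the data had been seen, MtnA had log2 changes of −1.70 after DOM-B, −1.16 after H2A.V and −3.41 after TIP60 RNAi, all with adjusted p-values under the threshold (the highest was 0.000569, by edgeR, after H2A.V RNAi).

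**Figure D2:**
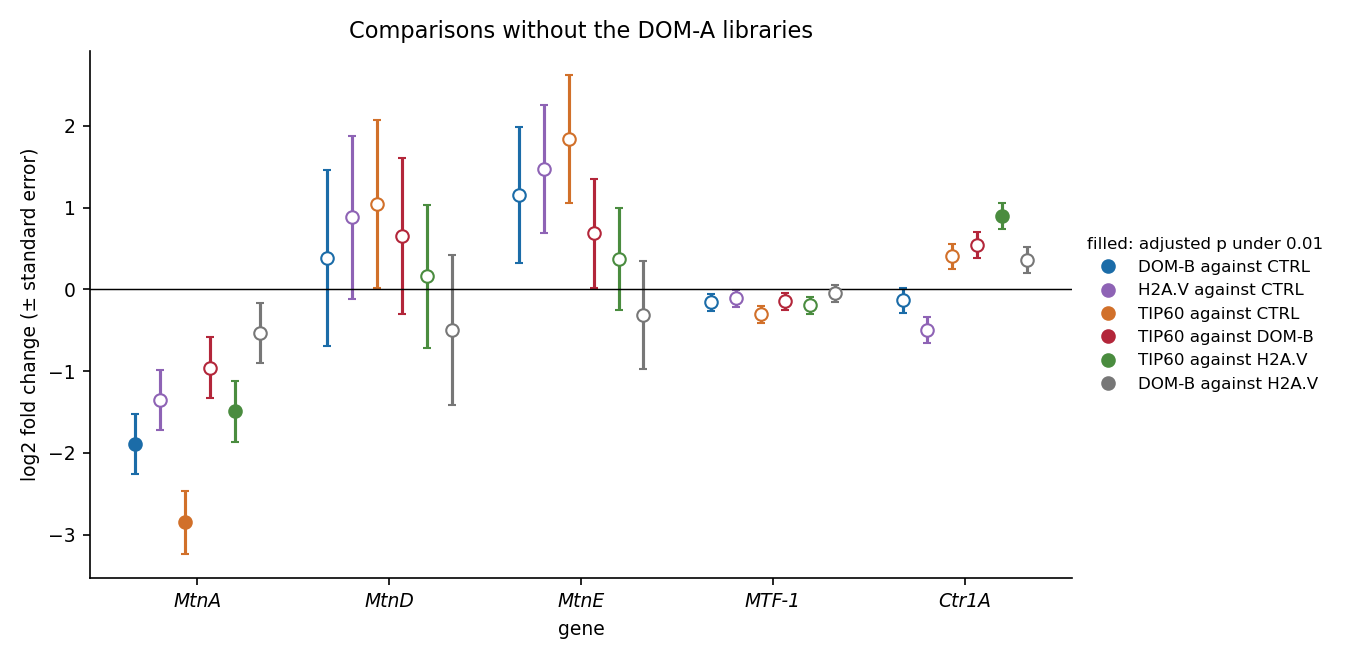
Log2 fold changes with standard errors (y axis) of the 5 members that passed the filter, in the 6 comparisons without the DOM-A libraries, with filled points for adjusted p-values under 0.01. MtnA has filled points in 3 comparisons and Ctr1A in 1, and the wide bars of MtnD and MtnE belong to genes with at most 9 reads per library.

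The 4 metallothionein genes of the cluster were close to silent in all groups. MtnE had 4 reads in CTRL, 15 after H2A.V, 10 after DOM-B, 15 after TIP60 and 4 after DOM-A RNAi, each summed over 3 libraries. In the TIP60 libraries MtnE had 6, 3 and 6 reads against 1, 2 and 1 in CTRL, a log2 change of 1.84 (SE 0.782, edgeR adjusted p = 0.104). These groups did not overlap after normalization, and the difference missed the threshold. MtnD had 4, 10, 6, 8 and 13 reads in the same order of groups, and its adjusted p-values lay between 0.503 and 0.910 by edgeR. Beside its 41 reads in all libraries, MtnD had 47 reads on the other strand, so that a count without regard to strand would mix both. MtnB had no read in CTRL and H2A.V RNAi, 1 after DOM-B RNAi, 2 after TIP60 RNAi and 8 after DOM-A RNAi, with 1, 2 and 5 reads in the single DOM-A libraries. The DOM-A and CTRL libraries did not overlap for MtnB, which is a description without a test. The 8 reads have an exact 95% Poisson interval of 3.45 to 15.8, and the same interval for the 0 reads of CTRL reaches up to 3.69. Whether such intervals overlap does not test a difference. MtnC had 1 read in CTRL replicate 3 and 1 in H2A.V replicate 3. The intervals of MtnB cover counting error only. MtnD and MtnE were not called in any tested comparison, and MtnB and MtnC did not pass the filter. Changes of the cluster were thus neither shown nor excluded at this depth.

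MTF-1 lay between 527 and 902 normalized counts in all libraries. Its normalized counts in replicates 1, 2 and 3 were 902, 790.2 and 883 in CTRL, 804, 730.4 and 849 after H2A.V RNAi, and 769, 817 and 713 after DOM-B RNAi. They were 725, 676 and 682 after TIP60 RNAi and 631, 527 and 588 after DOM-A RNAi. The means followed the same order of groups as those of MtnA, and both TIP60 and DOM-A libraries lay below all CTRL libraries. None of the 6 tested comparisons called MTF-1. The largest difference was that of TIP60 RNAi against CTRL, with a log2 change of −0.31 (SE 0.105, edgeR adjusted p = 0.0484), lower in 3 of 3 replicates. With total D. virilis counts as library sizes it was −0.46, with an edgeR adjusted p = 0.00605. In DOM-A RNAi against CTRL, MTF-1 had a fold of 0.677, which corresponds to a log2 change of −0.56 (SE 0.106; −0.51, −0.58 and −0.59 in the single replicates), given without a test. MTF-1 overlaps Bet3 and CG42526 on the opposite strand, and 11.5% of the reads at MTF-1 lay on that strand and were not counted for it. The antisense RNA gene asRNA:CR45872 overlaps MTF-1 on the same strand, and counting by strand does not separate these genes.

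Ctr1A, the only copper importer gene with more than a few reads, was highest after TIP60 and lowest after H2A.V RNAi. Its normalized counts in replicates 1, 2 and 3 were 560.0, 651 and 589.9 in CTRL and 365, 383 and 526 after H2A.V RNAi. They were 452, 678 and 519.9 after DOM-B RNAi, 796, 879 and 707 after TIP60 RNAi and 659, 712 and 576 after DOM-A RNAi. All TIP60 libraries lay above all CTRL, H2A.V and DOM-B libraries, whereas DOM-A replicate 2 slightly exceeded TIP60 replicate 3. Between TIP60 and H2A.V RNAi, Ctr1A differed by a log2 change of 0.90 (SE 0.157, edgeR adjusted p = 0.000585; 1.12, 1.20 and 0.43 in the single replicates). This was 0.71 relative to the median of all genes in that comparison, and the call held in all 15 alternatives, 6 of which left out one library. Against CTRL, the log2 changes were 0.40 for TIP60 (edgeR adjusted p = 0.0733), −0.49 for H2A.V (0.0331) and −0.14 for DOM-B RNAi (0.621), and none was called. Between TIP60 and DOM-B RNAi it was 0.54 (edgeR adjusted p = 0.0187), with TIP60 higher in 3 of 3 replicates. After DOM-A RNAi the log2 change against CTRL was 0.11 (SE 0.156), given without a test. Ctr1B had 6 reads in the 15 libraries, 4 of them after TIP60 RNAi, and Ctr1C, a further importer gene, had no read.

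The gene on the other side of MtnA's start, CG8500, was also low after DOM-A and TIP60 RNAi. CG8500 (3R, 9784653 to 9789323) lies on the plus strand and begins 282 bp from MtnA, which lies on the minus strand, so that both genes are divergent. Its normalized counts in replicates 1, 2 and 3 were 831, 847 and 418 in CTRL, 117, 89.1 and 114 after DOM-A RNAi and 89.4, 161 and 88.9 after TIP60 RNAi. It had 414, 555 and 238 after H2A.V RNAi and 342, 399 and 241 after DOM-B RNAi. The DOM-A and TIP60 libraries lay below all others. CG8500 fell after DOM-A RNAi with a log2 change of −2.62 (SE 0.250, edgeR adjusted p = 7.42e-06) and after TIP60 RNAi with −2.61 (SE 0.248, edgeR adjusted p = 1.33e-05). Both calls held in all alternatives, the fit without the replicate block included. After DOM-B RNAi it was −1.07 (edgeR adjusted p = 0.00801), a call that was lost in each of the 6 fits without one library and without the replicate block (edgeR adjusted p = 0.0579), and after H2A.V RNAi −0.81 (edgeR adjusted p = 0.0186). TIP60 RNAi was lower than DOM-B RNAi by −1.55 (edgeR adjusted p = 0.000512).

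The gene on the other flank of MtnA, CG12947 (9780064 to 9783054, plus strand), lies 352 bp from its end. CG12947 had a log2 change of −0.62 after DOM-A RNAi (edgeR adjusted p = 0.118), −0.29 after TIP60 RNAi (0.503) and 1.11 after H2A.V RNAi (0.0114), none of them called. Against H2A.V RNAi, CG12947 was lower after TIP60 (−1.40, edgeR adjusted p = 0.00179) and after DOM-B RNAi (−1.69, edgeR adjusted p = 0.00161), and each call held in 5 of 6 fits without one library. Stat92E, the transcription factor gene of the JAK/STAT pathway, lies on the minus strand with its end 21 bp from the end of MtnD and had 1720.4 to 4212 normalized counts per library. Stat92E was higher after TIP60 than after H2A.V RNAi by 0.61 (edgeR adjusted p = 0.00455), where the median of all genes was 0.19. This call was lost with TMM normalization, with total D. virilis counts and without the replicate block (edgeR adjusted p = 0.0228). It held in 2 of 6 fits without one library. Stat92E was not called against CTRL in any knock-down. Its log2 changes against CTRL were 0.47 after DOM-A, 0.07 after DOM-B, −0.45 after H2A.V and 0.16 after TIP60 RNAi. On the far side of the cluster, the nearest gene that passed the filter was Ir92a, with a mean normalized count of 0.714.

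The 5 genes with the pattern most like that of MtnA were Pgm1, Tpi, GstE9, CG11000 and Gbs-76A, in this order. Likeness was the root mean square difference over the 15 libraries of log2(normalized count + 1) after subtraction of the mean of each gene, among 6461 genes that averaged at least 100. It was 1.06 for both Pgm1, which encodes phosphoglucomutase, and Tpi, which encodes triosephosphate isomerase, and 1.11 for GstE9, a glutathione S-transferase gene. CG11000 had 1.12 and Gbs-76A 1.17, where the median gene had 2.05 and a flat line would have 2.03. Pgm1 had mean normalized counts of 3903 in CTRL, 4451 after H2A.V, 1768 after DOM-B, 1314 after TIP60 and 616 after DOM-A RNAi. Its log2 change after H2A.V RNAi was 0.07 (edgeR adjusted p = 0.838), where MtnA had −1.36 and was not called either. Tpi had 3143, 2542, 2151, 691 and 469.5 in the same order of groups. Fer2LCH stood at place 11 and Fer1HCH at place 12 of this order, and no other gene of the metal lists stood among the first 100. The libraries share the replicate numbers, and this order is a description without a test.

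**Figure D3:**
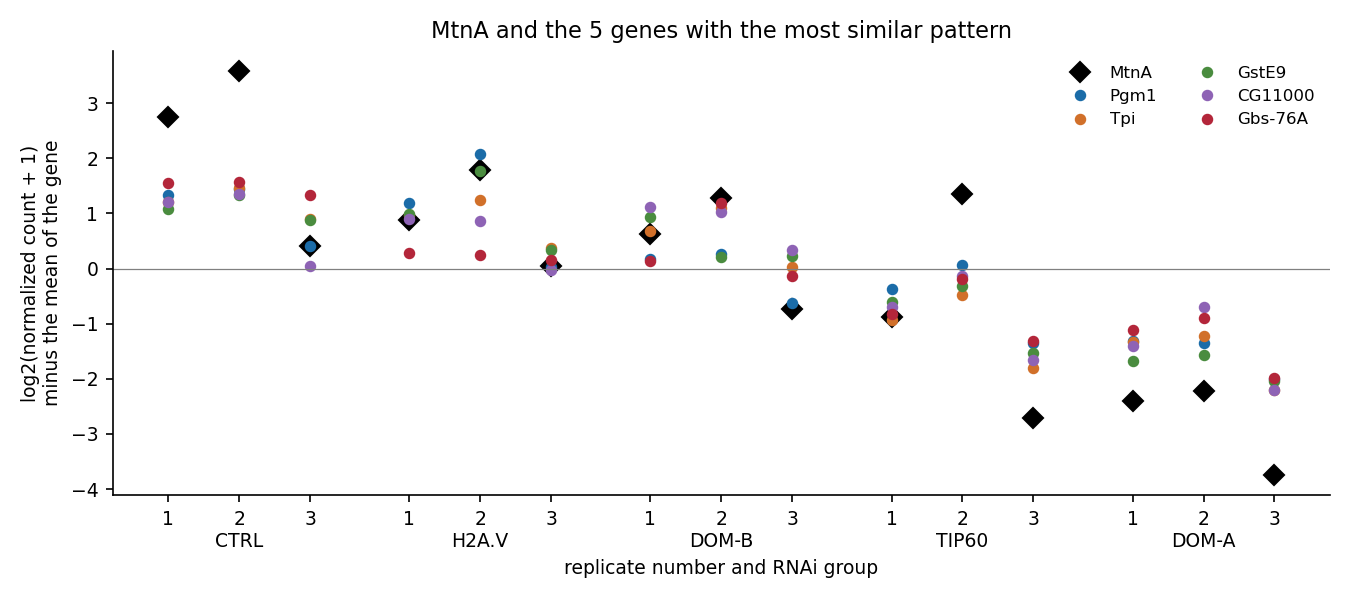
Log2(normalized count + 1) minus the mean of each gene (y axis) in the 15 libraries, for MtnA (black diamonds) and the 5 genes with the smallest root mean square difference to it. MtnA moves further than the other 5 genes, both down after DOM-A RNAi and between the replicates of CTRL and TIP60 RNAi.

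Beyond the 8 genes, 46 genes of copper trafficking, zinc export, zinc import, iron handling, glutathione synthesis and oxidative stress were followed, of which 39 passed the filter. DOM-A RNAi called 16 of these 39 genes, 8 higher and 8 lower, or 41%, where 19.4% of all genes were called. TIP60 RNAi called 9 (5 higher and 4 lower), H2A.V RNAi 5 (2 and 3) and DOM-B RNAi 2 (both higher), and these 3 shares of 23.1%, 12.8% and 5.13% stand beside 13.3%, 12.7% and 5.07% of all genes. Without the libraries of replicate 2, DOM-A RNAi called 21 of the 39 genes beside 26.7% of all genes, TIP60 RNAi 16 beside 19.3%, H2A.V RNAi 7 beside 16.0% and DOM-B RNAi 6 beside 12.6%. The lists were written with earlier results of these data known, and the 4 comparisons share their CTRL libraries.

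In the copper trafficking list, which covers transport and delivery of copper inside the cell, the called genes in the comparisons with CTRL were Cox17 and Scox. Cox17, a copper chaperone for cytochrome c oxidase, had normalized counts of 447, 585 and 530.0 in replicates 1, 2 and 3 of CTRL, 301, 349 and 352 after DOM-A RNAi and 288, 271 and 362 after TIP60 RNAi. Both knock-downs lay below all CTRL libraries. It fell after DOM-A RNAi (log2 change −0.64, SE 0.131, edgeR adjusted p = 0.00223) and after TIP60 RNAi (−0.76, SE 0.131, edgeR adjusted p = 0.00100). After DOM-B RNAi it had 700.3, 796 and 657, and TIP60 RNAi was lower than DOM-B RNAi by −1.23 (SE 0.131, edgeR adjusted p = 3.82e-05). Scox, which acts in the same delivery of copper to cytochrome c oxidase, fell after DOM-A (−0.46), TIP60 (−0.55) and H2A.V RNAi (−0.82, edgeR adjusted p = 0.000224). The call of Scox after DOM-A RNAi and after TIP60 RNAi each held in 1 of 6 fits without one library, and both were lost without the replicate block (edgeR adjusted p = 0.0300 and 0.0152). That of Cox17 after DOM-A RNAi held in 3 of 6 fits. Sod1, the copper and zinc superoxide dismutase and the most abundant gene of the list, had log2 changes between −0.36 and 0.32 against CTRL and was not called. ATP7, the copper exporter, and Atox1, the chaperone that supplies it, were not called against CTRL either, while Atox1 was higher after DOM-B than after H2A.V RNAi by 0.93 (edgeR adjusted p = 0.00301), where the median of all genes was 0.30. This call of Atox1 was lost with TMM normalization and with only both groups in the fit, and held in 3 of 6 fits without one library. Of 6 genes tested, 2 fell and none rose after DOM-A RNAi (median −0.17, all genes 0.03), and 2 fell after TIP60 RNAi (median −0.16, all genes −0.04). Of all 11424 genes, 1190 were called lower and 1024 higher after DOM-A RNAi. After TIP60 RNAi 963 were called lower and 557 higher.

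Zinc transporter genes that changed against CTRL were higher. Of the 5 zinc export genes tested (ZnT family, which moves zinc out of the cytosol), 3 rose after DOM-A RNAi (median 0.97, all genes 0.03) and 1 each after DOM-B, H2A.V and TIP60 RNAi. Of all 11424 genes, 1024 were called higher after DOM-A, 313 after DOM-B, 140 after H2A.V and 557 after TIP60 RNAi. ZnT41F had 248, 336 and 406 normalized counts in replicates 1, 2 and 3 of CTRL, 939, 506 and 949 after DOM-A RNAi and 836, 935 and 939.7 after TIP60 RNAi, without overlap with CTRL. It rose with log2 changes of 1.26 after DOM-A RNAi (SE 0.228, edgeR adjusted p = 0.000943) and 1.47 after TIP60 RNAi (SE 0.228, edgeR adjusted p = 0.000469). ZnT63C, the most abundant gene of the list, rose by 0.97 after DOM-A RNAi (edgeR adjusted p = 0.00622), a call that held in 1 of 6 fits without one library and was lost without the replicate block (edgeR adjusted p = 0.0121). ZnT77C, at 19.1 to 149 normalized counts per library, rose by 1.90 after DOM-B (edgeR adjusted p = 0.000690), 1.27 after DOM-A (edgeR adjusted p = 0.00307) and 1.29 after H2A.V RNAi (edgeR adjusted p = 0.00363). Without the replicate block none of these 3 calls of ZnT77C held (edgeR adjusted p = 0.0952, 0.155 and 0.137), and they held in 6, 2 and 1 of 6 fits without one library.

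Of the 8 zinc import genes tested (ZIP family, which moves zinc into the cytosol), foi rose after all 4 knock-downs. It had 2818, 2249 and 2648 normalized counts in replicates 1, 2 and 3 of CTRL and 3656 to 6336 in the other 12 libraries, so that no library overlapped with CTRL. The log2 changes were 1.10 after DOM-A, 0.64 after DOM-B, 0.98 after H2A.V and 0.96 after TIP60 RNAi, with adjusted p-values of 3.83e-05, 0.00574, 0.000197 and 0.000172 by edgeR. The call after DOM-B RNAi was lost in each of the 6 fits without one library, with TMM normalization and without the replicate block (edgeR adjusted p = 0.0242), and the other 3 calls held in all of them. Zip102B rose after DOM-A RNAi by 0.54 (edgeR adjusted p = 0.00438), and this call held in 1 of 6 fits without one library and was lost with total D. virilis counts and without the replicate block (edgeR adjusted p = 0.0102). The medians of the list were 0.55 after DOM-A and 0.45 after TIP60 RNAi, beside 0.03 and −0.04 for all genes, and Catsup, a zinc transporter of the secretory pathway, was not called, with log2 changes between −0.15 and −0.04.

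**Figure D4:**
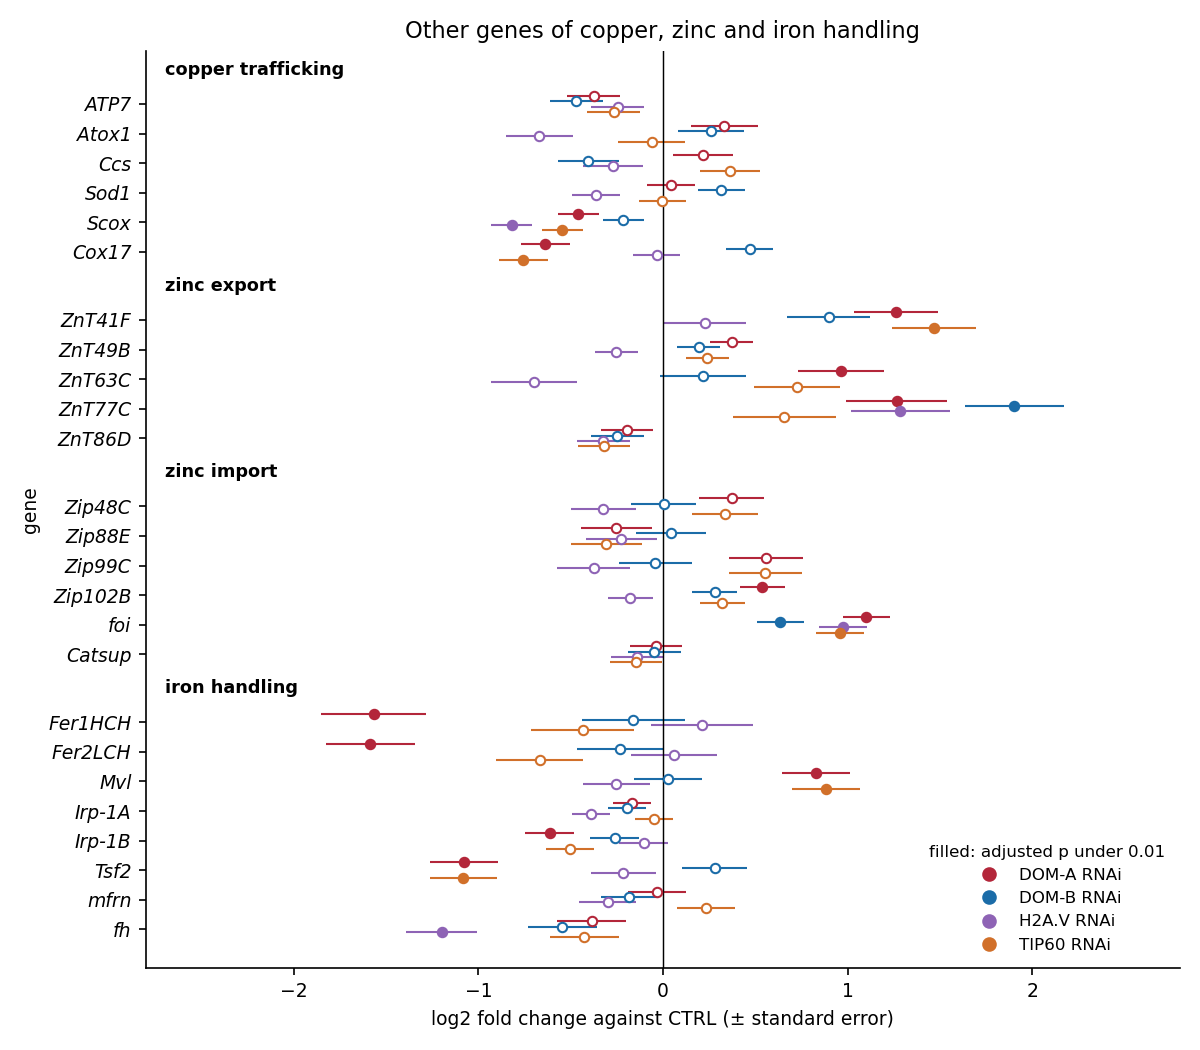
Log2 fold changes against CTRL with standard errors (x axis) of genes of copper trafficking, zinc export, zinc import and iron handling, with colours for the knock-downs and filled points for adjusted p-values under 0.01. Genes with few reads (Zip71B, Zip89B, Tsf1 and Tsf3) are not drawn. The ferritin genes and Tsf2 lie furthest to the left after DOM-A RNAi, and foi is right of 0 in all 4 knock-downs.

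In the iron list, both ferritin genes were low after DOM-A RNAi. Fer1HCH, the ferritin heavy chain gene, had normalized counts of 16219, 21375 and 8581 in replicates 1, 2 and 3 of CTRL and of 5092, 4765 and 4173 after DOM-A RNAi, and Fer2LCH, the light chain gene, had 13081, 24069 and 7790.1 in CTRL and 4029, 5354 and 3914 after DOM-A RNAi. The DOM-A libraries lay below all CTRL libraries for both. Fer1HCH fell with a log2 change of −1.57 (SE 0.285, edgeR adjusted p = 0.000958) and Fer2LCH with −1.59 (SE 0.241, edgeR adjusted p = 0.000259). Both calls held in 6 of 6 fits without one library and were lost without the replicate block (adjusted p-values 0.0244 and 0.0243, edgeR). Neither gene was called after DOM-B, H2A.V or TIP60 RNAi, where replicate 2 had 25159 for Fer1HCH and 20152 for Fer2LCH in the TIP60 group against 4941 and 4402 in replicate 3. The annotated spans of the 2 genes overlap on opposite strands of 3R (30385573 to 30388178 and 30387804 to 30390584), and reads were counted by strand.

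Tsf2, a transferrin family gene, fell after DOM-A RNAi by 1.08 on the log2 scale (SE 0.182, edgeR adjusted p = 0.000578) and by the same 1.08 after TIP60 RNAi (SE 0.181, edgeR adjusted p = 0.000803). Its normalized counts were 391, 367 and 385 in CTRL, 179.5, 178 and 184 after DOM-A RNAi and 191, 157 and 191 after TIP60 RNAi. Mvl, a divalent metal transporter gene of the NRAMP family and the most abundant gene of the list by normalized count, rose by 0.83 after DOM-A (edgeR adjusted p = 0.00392) and by 0.88 after TIP60 RNAi (edgeR adjusted p = 0.00339). Each of these calls held in 2 of 6 fits without one library and was lost without the replicate block (edgeR adjusted p = 0.0128 and 0.0143). Irp-1B, an iron regulatory protein gene, fell after DOM-A RNAi (−0.61, called in 2 of 6 such fits and not without the replicate block, edgeR adjusted p = 0.0278), and fh, the frataxin gene, fell after H2A.V RNAi (−1.20, edgeR adjusted p = 0.000626). Of 10 iron genes tested, DOM-A RNAi thus called 1 higher and 4 lower (median −0.28, all genes 0.03), and TIP60 RNAi 1 higher and 1 lower (median −0.30, all genes −0.04). In either direction, DOM-A RNAi called 19.4% of all genes and TIP60 RNAi 13.3%.

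Among genes of glutathione synthesis and oxidative stress, which share inducers with metallothioneins, single genes moved in both directions. Gclc, which encodes the catalytic subunit of the first enzyme of glutathione synthesis, had 1889, 2134 and 2174 normalized counts in CTRL, 3938, 4105 and 4436 after DOM-A RNAi and 3501, 3319 and 3876 after TIP60 RNAi. It rose by 1.01 after DOM-A (SE 0.132, edgeR adjusted p = 8.20e-05) and by 0.79 after TIP60 RNAi (SE 0.131, edgeR adjusted p = 0.000778), and both calls held in all alternatives. Sod2, the mitochondrial superoxide dismutase gene, fell after DOM-A (−0.84, edgeR adjusted p = 6.68e-05), H2A.V (−0.66, edgeR adjusted p = 0.000656) and TIP60 RNAi (−0.53, edgeR adjusted p = 0.00238). Of these calls of Sod2, that after H2A.V RNAi was lost with TMM normalization and with total D. virilis counts. Those after H2A.V and TIP60 RNAi were lost without the replicate block (edgeR adjusted p = 0.0105 and 0.0286). The call of Sod2 after TIP60 RNAi held in 3 of 6 fits without one library, those after DOM-A and H2A.V RNAi in 6 of 6. Trxr1, the thioredoxin reductase gene, fell after DOM-A RNAi (−0.83, edgeR adjusted p = 0.00308), a call that held in 2 of 6 fits without one library and was lost without the replicate block (edgeR adjusted p = 0.0301). Keap1 rose after DOM-A RNAi (0.84, edgeR adjusted p = 0.000998). GstD1, a glutathione S-transferase gene and the most abundant of the list, rose after TIP60 RNAi by 1.13 (edgeR adjusted p = 0.00313), a call that held in 1 of 6 fits without one library and was lost without the replicate block (edgeR adjusted p = 0.0399). H2A.V replicate 2 stood apart for Trxr1, with 22154 against 11735 and 10497 in replicates 1 and 3.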

How the data were processed

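RNA-seq of 15 Kc167 libraries (5 RNAi groups of 3) was analysed. Per the labels and the paper's methods, poly(A) RNA was made into directional libraries, and the authors mapped 50 nt reads with STAR 2.5.3a to the D. melanogaster and, independently, the D. virilis genome, discarded multi-mapping reads and deposited raw read counts per gene, without normalization. Counts on the strand of the gene were used, and reads assigned to no gene (4.74% to 6.99% of a library) were left out.

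The filter asked for 1 read or more in 6 or more samples and left 11424 genes (8941 of D. virilis). Library sizes were set by D. virilis size factors (median of ratios). edgeR 4.0.16 (R 4.3.3) was used with its quasi-likelihood test on all libraries, with group and replicate number as terms, Benjamini-Hochberg adjustment over all genes and a threshold of 0.01, after the study's methods, which used DESeq2. Values of single replicates are differences of log2(normalized count + 1). The fit was tested on simulated data. Replicate numbers are in the sample labels. Whether replicates came from separate cultures is stated only as biological replicates, and p-values measure the spread between these samples. No pair of replicates was within counting error (chi-square per degree of freedom at least 19.9).

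The members and lists were chosen with earlier results of these data known. Named genes are the 8 members, genes of the lists by call and abundance, the 5 genes most like MtnA, its neighbours and those of the cluster, and CG7860 as next in the order. Names came from an annotation of BDGP6 newer than the one used for counting (17343 of 17481 identifiers matched). No genome sequence was used. Alternatives were TMM normalization, total D. virilis counts, no filter, at least 10 reads in every sample, no replicate block, only both groups in the fit, counts without regard to strand, DESeq2 1.42.0, a threshold of 0.05 and leaving out each library. The fits without all replicate 2 libraries were added after the data had been seen.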

Additional observations from a re-analysis of the deposited data

How the results depend on the processing

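No direction of a called result turned under any alternative. Counts of called genes below are given first for RNAi of DOM-A, then DOM-B, H2A.V, TIP60 (each against CTRL), then TIP60 against DOM-B, TIP60 against H2A.V and DOM-B against H2A.V RNAi, as far as they moved by over 1.5 times. Without the replicate block they were 1422, 203, 912 and 924 against CTRL, 1217 for TIP60 against DOM-B and 729 for DOM-B against H2A.V RNAi. In that fit MtnA had −2.13 after DOM-B RNAi, −2.64 after TIP60 RNAi and −0.97 between TIP60 and H2A.V RNAi, each past the threshold only with the block, and 0, 0 and 1 members were called in these comparisons. At a threshold of 0.05 the counts were 3674, 1489, 2845, 2798, 3262, 4042 and 2864. With only both groups in the fit they were 1661 (DOM-B) and 2279 (H2A.V) against CTRL, 655 for TIP60 against DOM-B and 2 for DOM-B against H2A.V RNAi. DESeq2 called 1143 (DOM-B), 2217 (H2A.V) and 2144 (DOM-B against H2A.V). TMM normalization called 762 (H2A.V) and 671 (DOM-B against H2A.V), and total D. virilis counts 598 (H2A.V) and 3046 (TIP60 against DOM-B). Among the calls after H2A.V RNAi, 9.62% were higher, against 35.8% with TMM and 31.8% with total D. virilis counts. Between DOM-B and H2A.V RNAi this share was 92.8% and 49.6% with TMM, between TIP60 and H2A.V RNAi 73.0%, 51.0% with TMM and 31.2% with total D. virilis counts, and between TIP60 and DOM-B RNAi 35.5%, 50.7% and 9.82%. With total D. virilis counts it was 80.7% instead of 54.1% after DOM-B RNAi and 22.5% instead of 36.6% after TIP60 RNAi. The cause was not tested.

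MtnA passed the threshold after H2A.V RNAi without the filter (−1.36), with only both groups in the fit (−1.37), with DESeq2 (−1.35) and without the replicate 2 libraries (−1.16), and between TIP60 and DOM-B RNAi with total D. virilis counts (−1.29) and without the replicate 2 libraries (−1.71). Members called after H2A.V RNAi were 1 without the filter, with DESeq2 and without replicate 2, and 2 in the other cases that moved, namely only both groups in the fit and the threshold of 0.05. After TIP60 RNAi 2 were called with total D. virilis counts and at 0.05. Between TIP60 and DOM-B RNAi 1 was called with TMM, DESeq2 and at 0.05, and 2 with total D. virilis counts and without replicate 2. Without the replicate 2 libraries, a choice made after the data had been seen, the counts of genes were 3051 (DOM-A), 1444 (DOM-B), 1832 (H2A.V), 2204 (TIP60), 2497 (TIP60 against DOM-B) and 3212 (TIP60 against H2A.V), and MtnA had −2.25 between TIP60 and H2A.V RNAi.

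In fits without one library, the counts ranged from 1219 to 2008 (DOM-A), 109 to 445 (DOM-B), 531 to 1777 (H2A.V), 683 to 1071 (TIP60), 989 to 1433 (TIP60 against DOM-B), 1513 to 2615 (TIP60 against H2A.V) and 158 to 1805 (DOM-B against H2A.V). MtnA ranged from −5.39 to −4.74, −2.16 to −1.65, −1.70 to −1.13, −3.62 to −2.55, −1.70 to −0.63, −2.23 to −1.15 and −0.73 to −0.16 in the same order. Members called ranged from 0 to 1 for DOM-B, 0 to 2 for H2A.V, 0 to 1 for TIP60 against DOM-B, 1 to 2 for TIP60 against H2A.V and 0 to 1 for DOM-B against H2A.V RNAi.

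Libraries with the same replicate number deviated together on average. Over the 30 pairs of libraries with the same number the mean correlation of deviations from the group means was 0.363 and the lowest −0.012. MtnB, MtnC, MtnD, MtnE and Ctr1B had 0 to 9 reads in every library, and changes of these genes were neither shown nor excluded.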
